A study of Mus musculus with 8 samples.

Results

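The 10 genes described here encode myeloid C-type lectin receptors. They are Clec4a1, Clec4a2, Clec4a3, Clec4b1, Clec4d, Clec4e, Clec4n, Clec5a, Clec7a and Clec12a. Their probes were chosen by the gene name that the non-normalized table gives, which took 17 of its 25697 probes (10 of 17889 gene names). A further 2 probes carry older names of Clec7a and Clec4e. As the brightest detected probes of these genes, they stand for them in the counts and the median below. The names alone define the set, but it was put together with earlier results of the same comparison known. The p-values below are therefore those of a fit across all genes, describe where each gene stands in that fit, and are no independent evidence about the family.

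The cells were RAW264.7, a macrophage line from Balb/c mice. All were grown in DMEM with fetal bovine serum and transfected with HiPerfect reagent, either with 1 siRNA against Ypel5 or with a scrambled siRNA, and RNA was taken 24 h later. Each group had 4 Illumina bead arrays (n = 4 in every comparison). Whether each replicate was a culture of its own is not stated in the labels. The p-values rest on the spread among the 4 arrays of a group, and that spread may be technical only. Untransfected cells and another Ypel5 siRNA were not analysed here.

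C-type lectin receptors are surface proteins with which macrophages and dendritic cells bind sugars and lipids of fungi, bacteria and damaged cells. The activating members Clec4n, Clec4b1, Clec4d and Clec4e signal through the adaptor FcR-gamma (gene Fcer1g), and Clec5a through DAP12 (gene Tyrobp). Clec7a carries its own activating motif. These routes meet at the kinase Syk and the CARD9, BCL10 and MALT1 complex, whereas Clec4a2 and Clec12a carry an inhibitory motif that recruits phosphatases.

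Between 11249 and 11612 probes were detected per array (detection p under 0.05). Precision is limited by the 4 arrays in each group. Median raw intensities were 180.6 to 194.04 in the scrambled group and 193.08 to 225.6 in the Ypel5 siRNA group, with a slight overlap, before normalization. The Ypel5 probe was detected on 0 of 4 arrays in either group, with normalized log2 intensities of 4.70 ± 0.095 (scrambled) and 4.78 ± 0.10 (Ypel5 siRNA; SD, n = 4), so the arrays could not show the knockdown. Directions are those of the arrays labelled Ypel5 siRNA. Of 10 macrophage markers 8 were detected on at least 4 arrays, among them Cd68, Csf1r and Lyz2, and 0 passed the test. Probes for Itgam and Mertk were not. None of the 6 dendritic cell, 5 T and NK cell, 3 B cell and 4 fibroblast markers on the array was detected on 4 or more arrays. Of 6 neutrophil markers, S100a8 and Camp were, and 0 passed.

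All 10 genes lie on chromosome 6. In the RefSeq gene order, Clec4n, Clec4d and Clec4e follow each other with 0 protein-coding genes between them. Clec4a1, Clec4a3, Clec4b1 and Clec4a2 lie next to them, with 1 gene (Clec4a4) between Clec4a3 and Clec4b1 and 1 gene (Clec4b2) between Clec4a2 and Clec4n. Clec12a and Clec7a stand 101 or more genes away and Clec5a stands far from both groups. RefSeq promoters (GRCm38.p6, 250 bases before to 50 bases after the start) matched 9 of the 10 genes, with 11 promoters in all. Clec4n had no promoter there, so the motif counts below leave it out. The promoters of Clec4b1, Clec7a and Clec4d are shown to set a gene that rose, a gene whose probes disagreed and a gene with close to no difference side by side. Capitals mark matches to the ISRE pattern (GAAA, any 2 bases, GAAA), the GAS pattern TTCNNNGAA, the PU.1 pattern GAGGAAGT, the C/EBP pattern TTNCNNAA and the AP-1 pattern TGANTCA, on either strand.
Clec4b1 (chr6:123049712-123050011, + strand): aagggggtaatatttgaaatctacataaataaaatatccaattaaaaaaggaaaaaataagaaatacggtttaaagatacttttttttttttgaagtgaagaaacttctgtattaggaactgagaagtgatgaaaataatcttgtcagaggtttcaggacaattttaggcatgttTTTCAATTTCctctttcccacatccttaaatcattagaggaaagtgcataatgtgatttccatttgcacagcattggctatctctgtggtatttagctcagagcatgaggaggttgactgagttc
Clec7a (chr6:129472730-129473029, - strand): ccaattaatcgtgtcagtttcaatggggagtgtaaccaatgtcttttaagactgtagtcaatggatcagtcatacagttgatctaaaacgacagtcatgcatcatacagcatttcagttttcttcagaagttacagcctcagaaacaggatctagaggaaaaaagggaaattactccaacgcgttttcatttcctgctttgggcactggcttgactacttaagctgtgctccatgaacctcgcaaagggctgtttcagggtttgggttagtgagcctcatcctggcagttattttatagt
Clec4d (chr6:123261857-123262156, + strand): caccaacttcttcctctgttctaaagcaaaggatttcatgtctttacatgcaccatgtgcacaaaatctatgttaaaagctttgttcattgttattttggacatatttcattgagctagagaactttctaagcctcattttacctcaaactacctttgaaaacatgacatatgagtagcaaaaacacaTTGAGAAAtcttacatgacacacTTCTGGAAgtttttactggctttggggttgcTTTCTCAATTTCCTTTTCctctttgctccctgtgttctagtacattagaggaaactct
The capitals of Clec4b1 are an ISRE match from -75 to -66 relative to the start. In Clec4d the ISRE match spans bases 1 to 10 after the start and directly follows a C/EBP match from -8 to -1, with C/EBP matches also at -62 to -55 and -39 to -32. Clec7a had no match to any of the patterns in this window or in that of its other start. Of 32851 mouse promoters of the same length, 3.44% held the ISRE pattern, 8.3% the GAS, 3.2% the PU.1, 40.7% the C/EBP and 7.81% the AP-1 pattern. Of the 11 promoters here 2 held the ISRE, 1 the GAS, 0 the PU.1, 5 the C/EBP and 2 the AP-1 pattern. A match describes letters and not a binding site.

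Of the 10 receptor genes, 7 had a probe detected on at least 4 of the 8 arrays and could be tested, with the brightest such probe standing for the gene. Clec4n and Clec4b1 rose after the Ypel5 siRNA, 0 fell, and 5 did not pass a limma adjusted p of 0.05. The share of all 8145 tested genes that passed in the upward direction was 2.96% and in the downward direction 2.01%, and nothing is read from the comparison of the counts, since the set was chosen with this contrast known. The median difference of the 7 genes was log2 0.07, against 0.00094 over all genes tested. It is the value of Clec4e on its probe under the older name. All log2 values below are of normalized intensity, and differences are Ypel5 siRNA minus scrambled.

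Clec4n, which encodes dectin-2, a receptor for fungal mannans, had the largest rise in the set. Its log2 intensities were 8.25, 8.39, 8.31 and 8.36 on the scrambled arrays of replicates 1 to 4 and 9.28, 9.04, 9.22 and 8.95 on the Ypel5 siRNA arrays. Every Ypel5 siRNA array was above every scrambled array. In raw intensity, before background correction, the scrambled arrays read 418.95 to 481.9 and the Ypel5 siRNA arrays 712.6 to 958.9. The rise was 1.73-fold (log2 0.79, SE 0.080, limma adjusted p = 0.00291), which ranked 30 among 8145 genes by signed difference. Clec4n passed under all 22 alternative settings tried, with differences from log2 0.57 to 0.86. A single probe reads this gene, so no second probe could be set beside it.

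Clec4b1, known as DCAR, is an activating receptor that in mice binds mycobacterial mannosides. Its brightest probe, ILMN_2959372, read 8.68, 8.53, 8.59 and 8.60 on the scrambled and 8.93, 9.30, 9.21 and 9.20 on the Ypel5 siRNA arrays. The groups did not overlap, and the lowest Ypel5 siRNA value was that of replicate 1. The rise was 1.47-fold (log2 0.56, SE 0.083, limma adjusted p = 0.0101). Of all genes tested, 7.92% had all Ypel5 siRNA arrays above all scrambled arrays.

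The other Clec4b1 probes did not carry the call. The dimmer ILMN_2603898 was detected on 1 of 4 scrambled and 4 of 4 Ypel5 siRNA arrays. It read 4.99, 5.45, 6.32 and 5.39 against 6.28, 5.91, 5.67 and 5.96, so scrambled replicate 3 was the highest of all 8 arrays and the groups overlapped (log2 0.42, SE 0.26, adjusted p = 0.629 over all probes). This dimmer probe was kept through the group in which its mean was higher. Its difference depended on the background correction and was log2 0.11 without it (quantile). ILMN_1213068 was detected on 0 arrays. With the mean of the detected probes Clec4b1 was at log2 0.49 and no longer passed (adjusted p = 0.0634). Clec4b1 also belongs to a cluster of closely related genes, and whether its probes read relatives such as Clec4b2 was not tested.

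**Figure D1:**
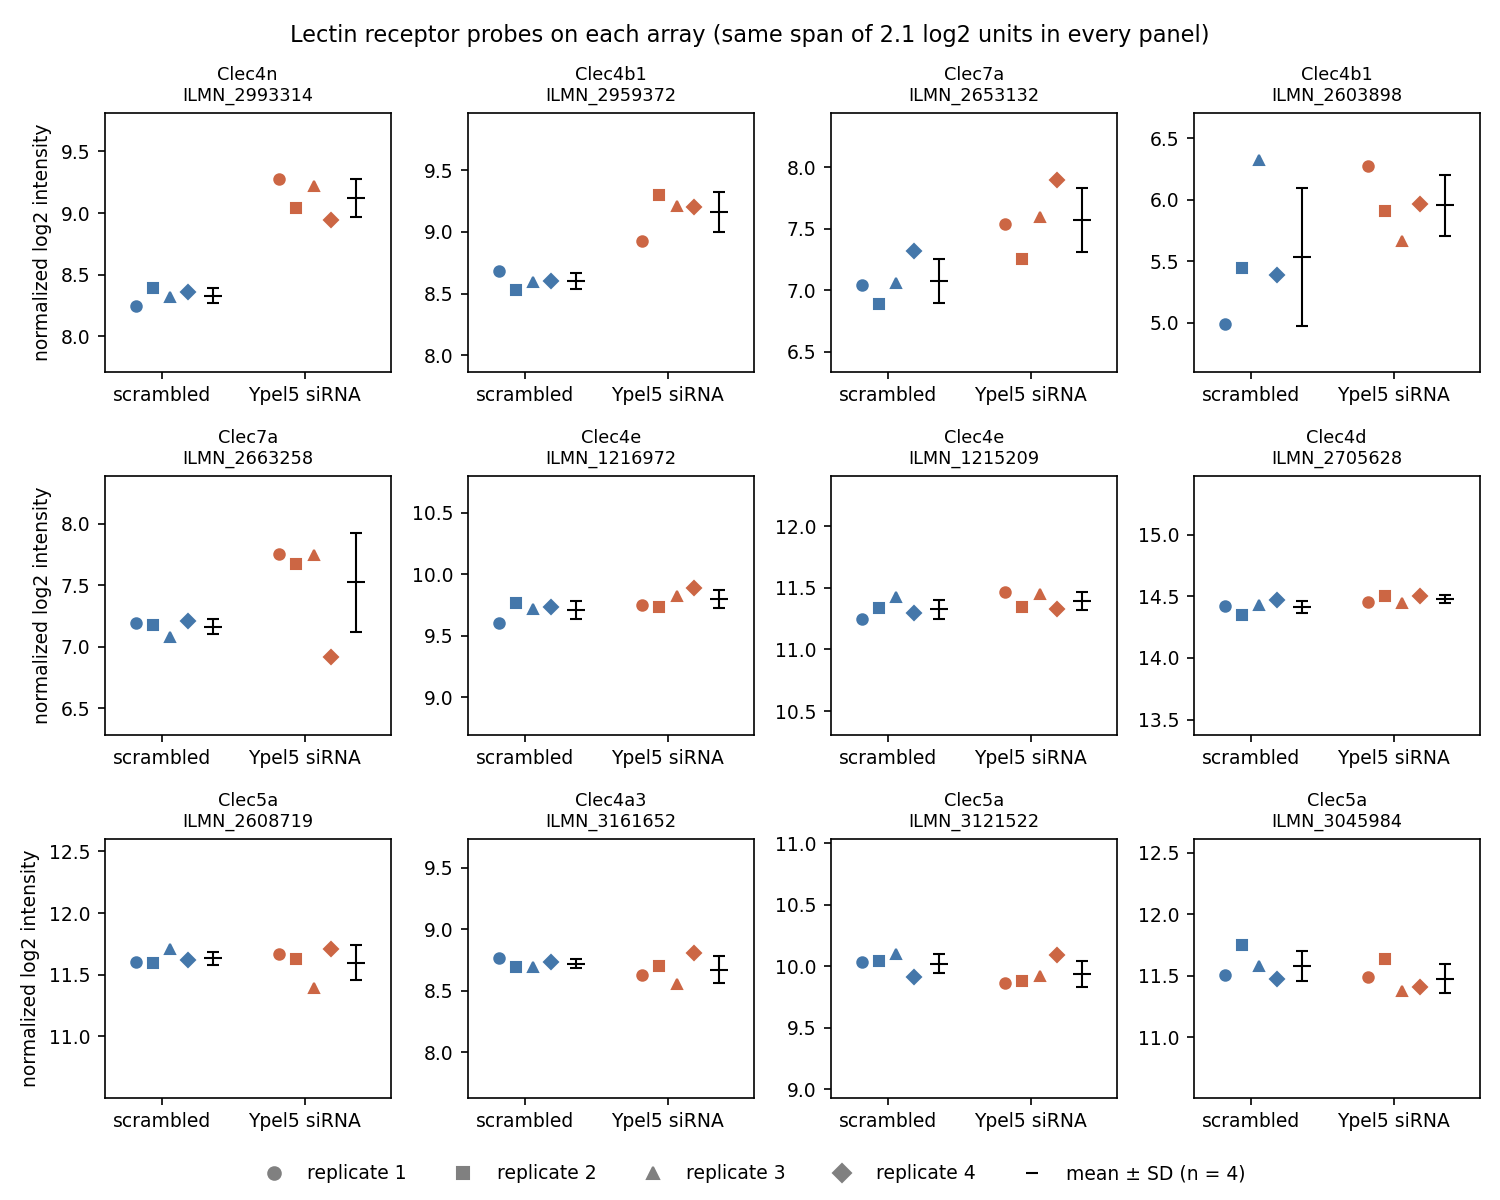
Normalized log2 intensity (y axis) of the 12 lectin receptor probes detected on at least 4 of 8 arrays, for scrambled (blue) and Ypel5 siRNA (orange) arrays, with a symbol per replicate number, the mean and SD in black (n = 4), and the same span on every y axis. The groups stand apart for Clec4n and for the first Clec4b1 probe, while Ypel5 siRNA replicate 4 is the lowest array for Clec7a probe ILMN_2663258 (6.92) and the highest for ILMN_2653132 (7.89).

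Clec7a encodes dectin-1, the receptor for fungal beta-glucan, and its probes disagreed on 1 array. The probe named Clec7a in the table, ILMN_2653132, read 7.04, 6.89, 7.06 and 7.32 on the scrambled and 7.54, 7.26, 7.59 and 7.89 on the Ypel5 siRNA arrays. The ranges overlapped slightly, by scrambled replicate 4 and Ypel5 siRNA replicate 2. The difference was log2 0.49 (SE 0.14, limma adjusted p = 0.212 over all probes, and 0.0858 when it stood for the gene). The slightly brighter probe under the older name, ILMN_2663258, read 7.19, 7.18, 7.08 and 7.21 against 7.76, 7.67, 7.74 and 6.92.

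On that brighter probe, 3 of the 4 Ypel5 siRNA arrays lay above every scrambled array and replicate 4 lay below them all. In raw intensity, replicate 4 (317.6) lay above the scrambled arrays (266.4 to 301.7). Since ILMN_2663258 is the brighter probe it stands for the gene, with log2 0.36 (SE 0.18, adjusted p = 0.295), which did not pass. Without Ypel5 siRNA replicate 4 the same probe was at log2 0.56 (adjusted p = 0.00611). With the mean of both detected probes, Clec7a was at log2 0.43 (adjusted p = 0.0246). The third Clec7a probe, ILMN_2770652, was detected on 0 arrays. The processing setting and 1 array therefore decided whether Clec7a was called.

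Clec4d and Clec4e, the chromosomal neighbours of Clec4n, showed small differences. Clec4d (MCL) forms complexes with Clec4e (Mincle), the receptor for mycobacterial cord factor. Clec4d read 14.42, 14.35, 14.43 and 14.47 on the scrambled and 14.45, 14.50, 14.44 and 14.50 on the Ypel5 siRNA arrays, and the groups overlapped. Its difference was log2 0.06 (95% interval -0.07 to 0.19, limma adjusted p = 0.504). Its raw intensity ranked between 114 and 142 from the top of the 25697 probes.

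Clec4e was read by 2 detected probes. ILMN_1215209, under its older name, was at 11.33 ± 0.077 and 11.40 ± 0.073, and ILMN_1216972 at 9.71 ± 0.071 and 9.80 ± 0.071 (scrambled and Ypel5 siRNA, SD, n = 4). Their differences were log2 0.07 (95% interval -0.08 to 0.23, limma adjusted p = 0.548) and log2 0.09 (95% interval -0.06 to 0.24, adjusted p = 0.701 over all probes), and the groups overlapped for both.

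Clec5a (MDL-1), which signals through DAP12, was read by 3 detected probes, all with groups that overlapped. The brightest, ILMN_2608719, read 11.60, 11.60, 11.71 and 11.62 against 11.67, 11.62, 11.39 and 11.71, a difference of log2 -0.03 (95% interval -0.22 to 0.15, limma adjusted p = 0.838). The other probes were at log2 -0.10 and -0.08 (adjusted p = 0.748 and 0.771 over all probes). Clec4a3, a gene of the DCIR subfamily, read 8.76, 8.69, 8.69 and 8.74 against 8.63, 8.70, 8.56 and 8.81 on its brighter probe, a difference of log2 -0.05 (95% interval -0.21 to 0.11, limma adjusted p = 0.708). Its other probe was detected on 0 scrambled arrays and 1 Ypel5 siRNA array (replicate 4), with no bound above 1 on the fold.

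The inhibitory receptor genes Clec4a2 and Clec12a, and Clec4a1, were detected on 0 of the 8 arrays. Clec4a2 has 2 probes and the others 1 each. Their log2 readings lay between 4.61 and 5.44, the highest of them on scrambled replicate 4 for Clec4a2. No fold is given, since both groups lay below background. A difference in these genes was not detectable at these intensities.

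**Figure D2:**
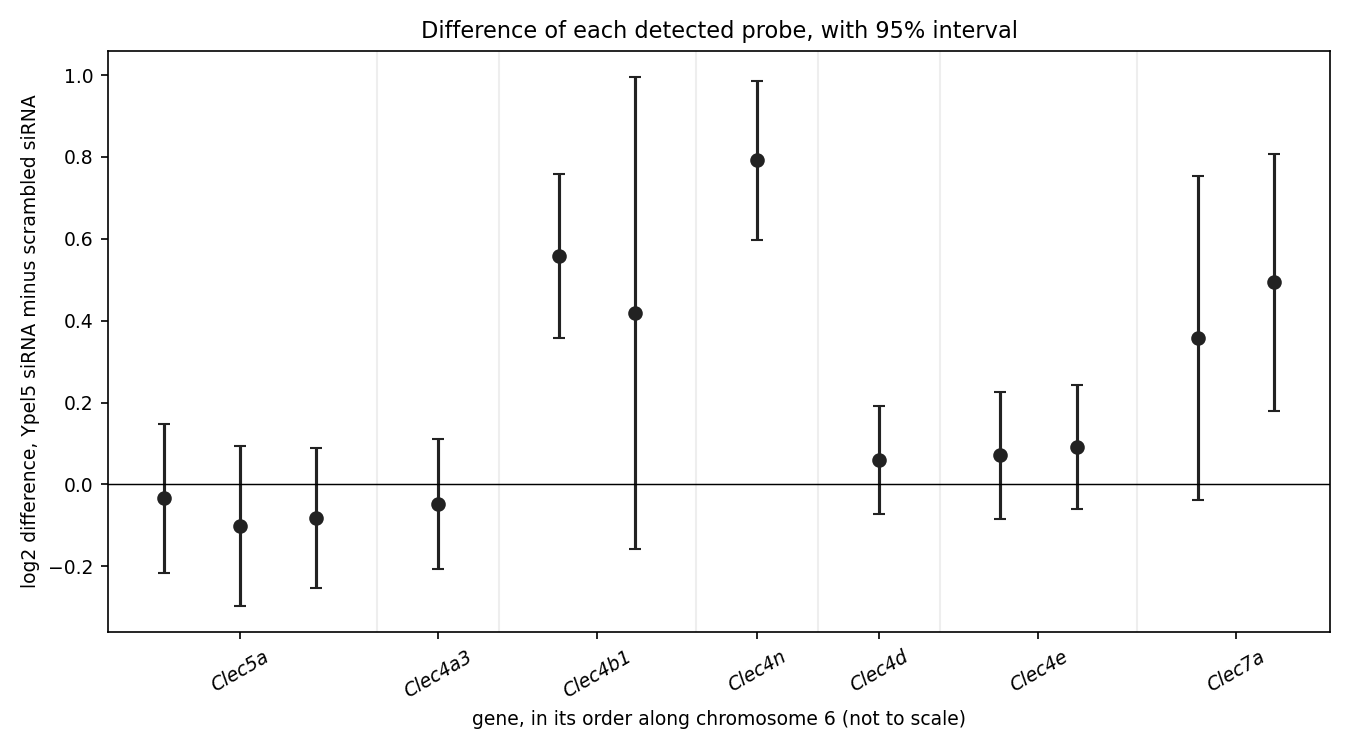
Log2 difference, Ypel5 siRNA minus scrambled siRNA (y axis), of the 12 probes detected on at least 4 of 8 arrays, with the 95% interval of the fit across all probes, by gene in the order along chromosome 6. Clec4n stands at 0.79, its neighbours Clec4d at 0.06 and Clec4e at 0.07 and 0.09, and Clec4b1 (0.56) has a wide interval on its other probe.

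The size of each rise depended on the background correction. Without it, with quantile normalization only, Clec4n was at log2 0.57, Clec4b1 at log2 0.41 and the brighter Clec7a probe at log2 0.19, and Clec4n and Clec4b1 still passed. With background correction and a common median in place of quantile normalization, 87.2% of all called genes were higher, against 59.5% as reported, and the receptor calls were again Clec4n (log2 0.86) and Clec4b1 (log2 0.63), while Clec4d stood at log2 -0.05 and Clec4a3 at log2 0.03. With the number in the source names as a block, the Clec4b1 call was lost (adjusted p = 0.0511) and Clec4n passed (adjusted p = 0.0178). The detection p-values took 101 distinct values on each array of replicate 1 and 749 to 762 on the other arrays, and the reason was not tested. Without both arrays of replicate 1, Clec4n was at log2 0.71 and Clec4b1 at log2 0.66, and both passed (adjusted p = 0.0282 and 0.0176).

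**Figure D3:**
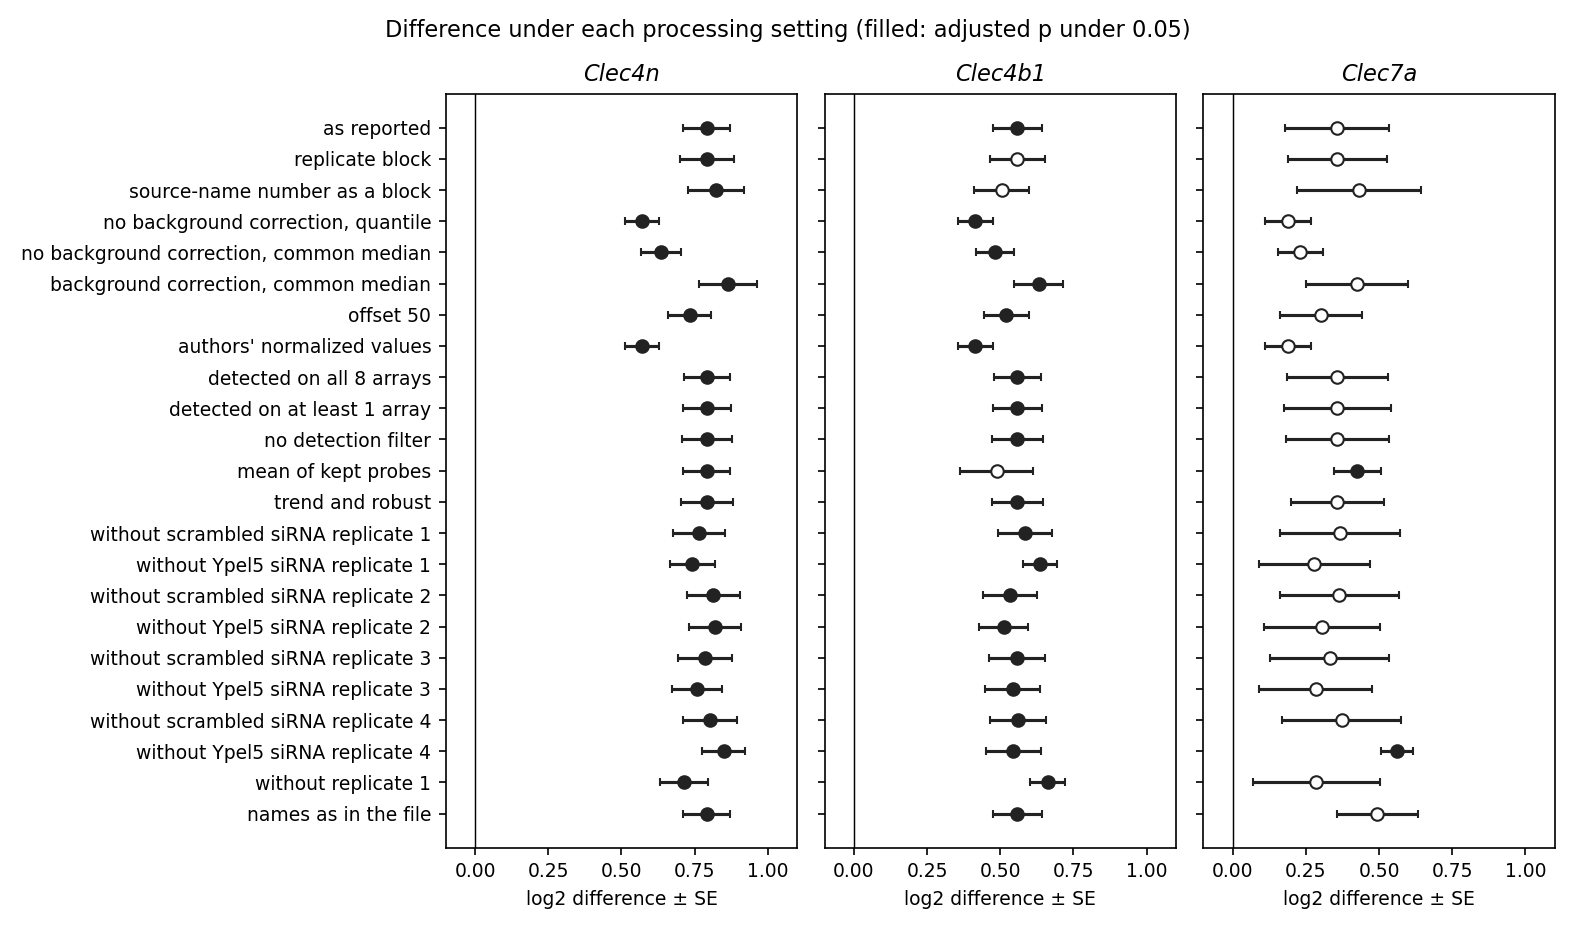
Log2 difference ± SE (x axis) of Clec4n, Clec4b1 and Clec7a as reported and under each of 22 alternative settings (y axis), with filled points where the limma adjusted p was under 0.05. Clec4n is filled throughout, Clec4b1 is open in 3 settings, and Clec7a is filled with the mean of its probes and without Ypel5 siRNA replicate 4.

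Among genes through which these receptors signal, Vav3 and Fgr rose. Of 24 genes in the list 19 could be tested, and 2 rose, 0 fell and 17 did not pass, where 4.97% of all genes passed in either direction. The list's median was log2 0.06, with 16 of 19 above 0, where 50.2% of all genes were. This list was also chosen with earlier results of these data known, so nothing is read from these counts. Vav3, a guanine nucleotide exchange factor that acts on small GTPases, read 8.91, 8.96, 9.14 and 9.12 on the scrambled and 9.57, 9.44, 9.41 and 9.47 on the Ypel5 siRNA arrays, without overlap (log2 0.44, SE 0.069, limma adjusted p = 0.0133).

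The Src family kinase gene Fgr read 8.79, 8.70, 8.66 and 8.76 against 8.99, 9.03, 9.16 and 8.99, again without overlap (log2 0.32, SE 0.058, limma adjusted p = 0.0219). The calls of both were lost without both arrays of replicate 1 (adjusted p = 0.0794 and 0.0796). That of Fgr was also lost with the source-name number as a block (adjusted p = 0.0893), without a detection filter (0.0790), and without scrambled replicate 2 or 3 or without Ypel5 siRNA replicate 2 (adjusted p = 0.0645, 0.0626 and 0.0605).

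Genes with a small p that did not pass included the phospholipase gene Plcg2 (log2 0.19, adjusted p = 0.0896), Bcl10 (log2 0.15, adjusted p = 0.163) and the calcium channel gene Itpr2 (log2 0.19, adjusted p = 0.233). The adaptor gene Tyrobp was at 12.85 ± 0.11 on the scrambled and 12.81 ± 0.023 on the Ypel5 siRNA arrays (SD, n = 4, log2 -0.04, 95% interval -0.20 to 0.12, limma adjusted p = 0.787). The single probes for Fcer1g and for Syk were detected on 0 arrays, and Card9 was not analysed here. The level of the adaptor on which Clec4n and Clec4b1 depend was therefore not measured.

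**Figure D4:**
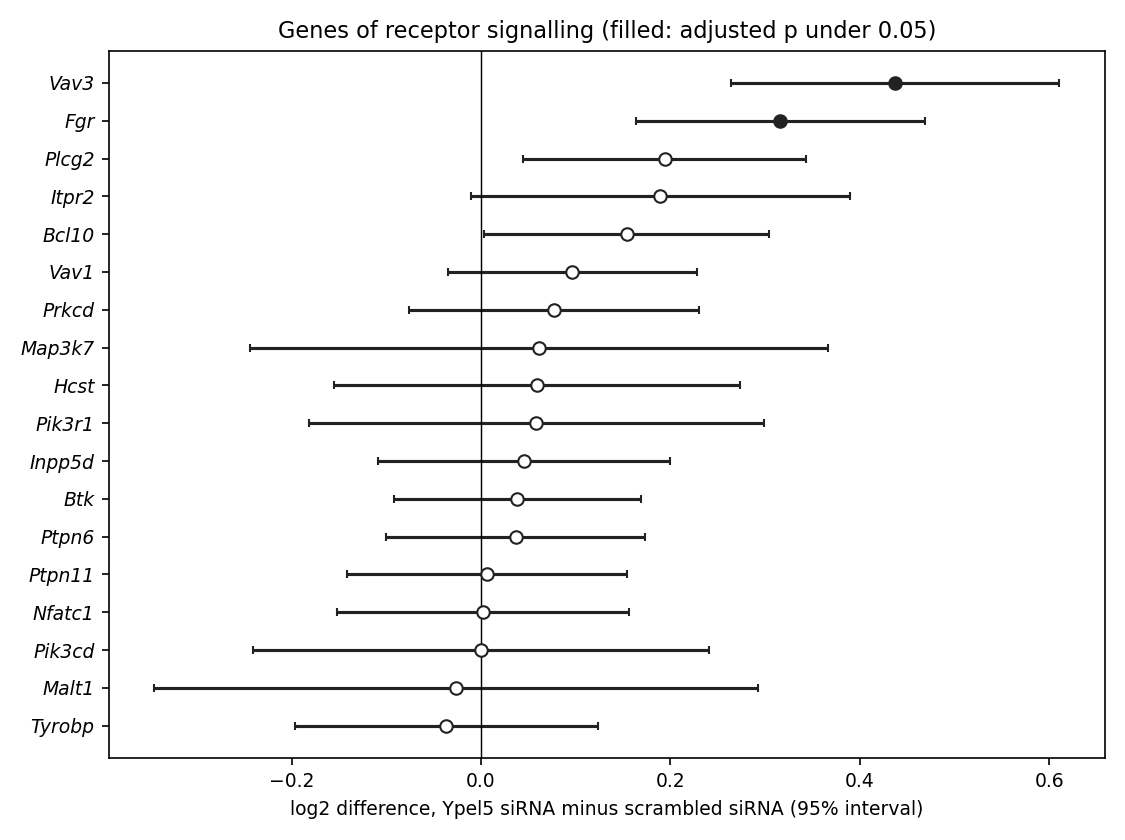
Log2 difference, Ypel5 siRNA minus scrambled siRNA (x axis), of 18 measured signalling genes (y axis) with the 95% interval of the fit across all probes. Filled points had a limma adjusted p under 0.05 across genes, which held for Vav3 (0.44) and Fgr (0.32).

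Genes that these receptors are known to induce did not pass in the fit as reported. Of 20 such genes 10 could be tested and 0 passed in limma, with 0 higher and 2 lower at an unadjusted p under 0.05. These were Egr1, an immediate early transcription factor gene (log2 -0.26, adjusted p = 0.0600), and Tnf (log2 -0.19, adjusted p = 0.163). Egr1 passed as lower in 6 of 22 alternative settings, with limma adjusted p = 0.0166 and 0.0346 without background correction (quantile and common median), 0.0165 with the authors' normalized values, 0.0487 with an offset of 50, 0.0456 for probes detected on all 8 arrays and 0.00451 with the trend and robust model. The chemokine gene Ccl4 was at log2 0.11 (adjusted p = 0.397) and Nfkbiz at log2 0.16 (adjusted p = 0.486). The list's median was log2 0.0010, and probes for Il6, Il12b and Il23a were among the 10 genes not detected on 4 arrays.

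Of 40 other genes with a C-type lectin name or domain, 33 had a probe and 7 could be tested. Cd207, which encodes langerin, a mannose receptor of Langerhans cells, passed. It read 6.94, 7.06, 6.93 and 6.92 against 7.31, 7.52, 7.54 and 7.14 without overlap (log2 0.42, SE 0.093, limma adjusted p = 0.0422), and its call was lost when any of the arrays but Ypel5 siRNA replicate 4 was left out (adjusted p = 0.0723 to 0.105). It was also lost with the source-name number as a block (adjusted p = 0.151), with the mean of its detected probes (0.126), with detection on 1 array (0.0644), without a detection filter (0.114) and without replicate 1 (0.163). Clec2d, whose product is a ligand of natural killer cell receptors, was detected on 1 of 4 scrambled and 4 of 4 Ypel5 siRNA arrays, so it entered the test through the group in which it was higher. Its difference depended on the background correction, at log2 0.80 with it (SE 0.21, limma adjusted p = 0.0658) and log2 0.22 without it (adjusted p = 0.0428). Clec1b was at log2 0.36 (adjusted p = 0.320), Clec3b at log2 -0.28 (adjusted p = 0.444) and Clec2e at log2 -0.15 (adjusted p = 0.810), and the median of the 7 was log2 -0.03. Clec1b was detected on 2 scrambled and 3 Ypel5 siRNA arrays, and Clec2e on 2 arrays of each group. Without background correction (quantile), Clec1b, Clec3b and Clec2e were at log2 0.10, -0.07 and -0.05.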

How the data were processed

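Amplified biotinylated cRNA of 4 scrambled siRNA and 4 Ypel5 siRNA samples was read on Illumina beads, per the labels. For each probe, the non-normalized table deposited by the authors holds a linear intensity and a detection p-value, per the file headers. The authors' log2 values are deposited in another table and, identically, as the value table of the series. Per the submitters' processing notes, RMA was used. The authors' sorted values lay within 0.0016 of the mean sorted log2 intensities, as quantile normalization without background correction gives. The alternative with the authors' values therefore nearly repeats that one. Source names gave the groups, and descriptions gave the replicate numbers. The source names also hold a number, which differs from that of the descriptions on some arrays.

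Background correction and quantile normalization used the neqc function (offset 16) of limma (version 3.58.1, R 4.3.3). A probe was kept if 4 or more of the 8 arrays detected it at p under 0.05 (11364 probes), and the brightest kept probe stood for its gene (8145 genes). Names were updated through RefSeq synonyms and gene identifiers, which added 1 probe each to Clec7a and Clec4e. The groups were compared two-sidedly with limma, with Benjamini-Hochberg adjustment over all genes. Values of probes that did not stand for a gene, and all 95% intervals, came from a fit over all 25697 probes. The 22 alternatives changed the correction, normalization, filter, probe choice, names, blocks or variance model, or left arrays out. The members and lists were chosen with earlier results of these data known. The text names every member, list genes past the threshold and up to 4 more of the smallest p per list, and Fcer1g, Tyrobp, Syk and Card9. For 1 gene of the signalling list, which counts in the totals, the values are not reported here.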

Additional observations from a re-analysis of the deposited data

Results flagged for a closer look

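Of 24 sets of 4 arrays checked (12 detected receptor probes in 2 groups), 1 held an array far from the others, where chance gives about 1 in 20. On the Clec7a probe ILMN_2663258, Ypel5 siRNA replicate 4 read log2 6.92, and the nearest array of its group read 7.67. On the other detected Clec7a probe, ILMN_2653132, the same array was the highest of its group at 7.89. Raw intensities on that array were 317.6 and 446.4, the lowest and the highest of its group, so the disagreement within the group was there before normalization. On ILMN_2663258 the raw scrambled arrays read 266.4 to 301.7, below the 317.6. The place of replicate 4 below every scrambled array therefore appeared only after background correction and normalization. The cause of the disagreement was not tested.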

How the results depend on the processing

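Clec4n passed in all 22 alternatives and Clec4b1 in 19 of 22, not with either block or with the mean of its probes. The fit over all probes was run under 15 alternatives. There Clec4n passed in 14, not with the replicate block (limma adjusted p = 0.108), and the brightest Clec4b1 probe in 6. That probe was lost when any array but Ypel5 siRNA replicate 1 was left out (limma adjusted p = 0.0776 to 0.110). The number of receptor genes past the threshold was 2, and 1 with the replicate block or with the source-name number as a block. It lay between 2 and 3 when any array was left out. The number of signalling genes past the threshold was 2. It was 0 with the replicate block and without replicate 1 (limma, where 4 were higher and 1 lower at an unadjusted p under 0.05 in the fit as reported), 1 with the source-name number as a block and without a detection filter, and 4 without background correction (quantile or common median), with the authors' normalized values and with the trend and robust variance model. It lay between 1 and 2 when any array was left out. Over the receptors' 7 differences, the median stayed between log2 0.06 and 0.11. Of the genes that did not pass, Clec4d, Clec5a and Clec4a3 changed sign between settings and Clec4e did not. Deviations of same-numbered arrays correlated at 0.038, -0.0033, -0.00070 and 0.18, so the numbers were not taken as pairs. With the replicate block the limma adjusted p was 0.0336 for Clec4n, 0.0618 for Clec4b1, 0.0678 for Vav3, 0.0958 for Fgr and 0.0694 for Cd207. Of all genes, 405 passed as reported (59.5% higher), 107 with the replicate block, 140 with the source-name block, 145 with no detection filter, 263 with detection on 1 array, 671 without background correction or with the authors' values, 773 with the trend and robust model, 180 to 268 with any array left out and 74 without replicate 1. With a common median 235 passed with and 701 without background correction, and the higher share was 87.2% with and 85.7% without background correction. Using the names as in the file was added after the data had been seen. Genes below background could not be assessed.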
